A study of Mus musculus with 8 samples.

Results

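Latrophilins are adhesion G protein-coupled receptors whose long extracellular part binds partner proteins on neighbouring cells. Their best known partners are the FLRTs, leucine-rich repeat transmembrane proteins, and the teneurins, large transmembrane proteins with a globular extracellular part. The set is best studied at synapses and in neuronal guidance. The 8 genes described here were taken by symbol from the deposited table of 53801 genes: the latrophilin genes Adgrl1, Adgrl2 and Adgrl3, the FLRT genes Flrt2 and Flrt3, and the teneurin genes Tenm2, Tenm3 and Tenm4. Adgrl3 leads the set because it was chosen by its measured RNA difference between the groups in these libraries. Its difference is therefore given as a description with its error, without a test, while the other 7 genes were taken by family.

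The RNA came from stromal cells sorted from the small intestine of mice that carry a floxed lymphotoxin β receptor gene together with PDGFRα/YFP, as the labels write it. All cells were YFP+ and lacked CD45 and CD31, the surface markers of leukocytes and endothelial cells. One group was PDGFRα+ on its surface (YFP+PDGFRα+) and the other was not (YFP+PDGFRα-), with 4 libraries each, numbered 1 to 4 in the titles. The labels give neither age nor sex, do not name a Cre driver, and do not say whether libraries came from separate mice, so each p-value rests on library-to-library spread that may be technical. Both groups share the floxed allele, and no library without it was analysed here.

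Totals ran from 12926651 to 35115771 counts per library. RNA of Pdgfra, the gene of the sort marker, ran from 475 to 750 CPM, counts per 1e+06 counts of the scaled library total, in PDGFRα- and from 497 to 656 CPM in PDGFRα+ libraries. The groups thus overlapped, and since the sort was on protein the RNA does not check the labels. Ltbr, the floxed gene, ran from 41.5 to 106 CPM in PDGFRα- and from 54 to 75.5 CPM in PDGFRα+ libraries, which says nothing of single exons. The defining fibroblast markers were present in every library: Col1a1, Col1a2, Dcn, Lum and Pdgfra together ran from 64300 to 93500 CPM in PDGFRα- and from 45200 to 63400 CPM in PDGFRα+ libraries. All CPM values are scaled by TMM, a correction of library size for a few very abundant genes.

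Adgrl3 RNA was higher in every PDGFRα+ library than in any PDGFRα- library. The gene (ENSMUSG00000037605) lies on chromosome 5 from 81020138 to 81825133 on the plus strand of GRCm38 and encodes a latrophilin that binds FLRT and teneurin proteins with its extracellular domains. It stood at 29.2, 59.0, 66.0 and 68.8 CPM in PDGFRα- libraries 1 to 4 and at 134, 236, 191 and 232 CPM in PDGFRα+ libraries 1 to 4. Library 1 was the lowest of its fraction on both sides. The means were 55.8 ± 18.2 and 198 ± 47.7 CPM (SD, n = 4), a 3.56-fold difference, with a log2 fold change of 1.83 ± 0.27 (SE). Between libraries of the same number the log2 ratio was 2.19, 2.00, 1.53 and 1.75 for numbers 1 to 4. With the number as a block in the fit the log2 fold change was 1.87 ± 0.14 (SE). In bulk RNA, more cells with Adgrl3 and more Adgrl3 RNA per cell cannot be told apart.

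**Figure D1:**
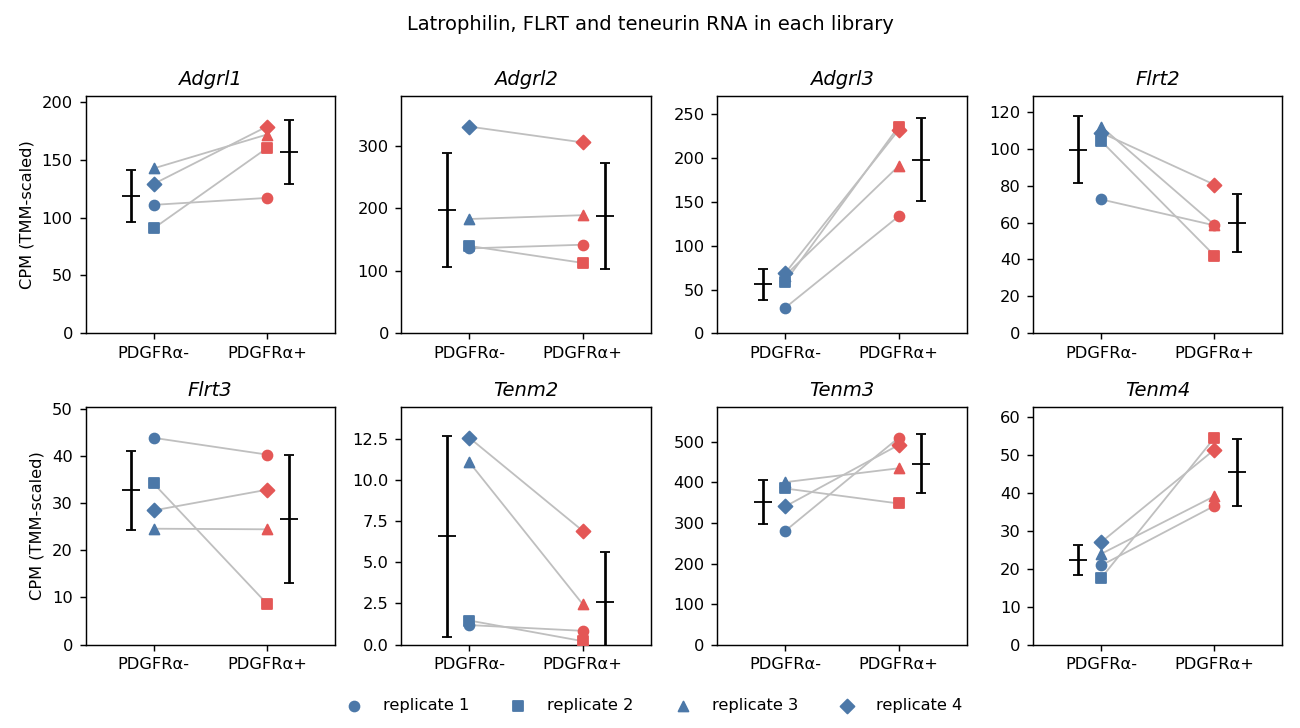
RNA of the 8 genes in CPM (vertical axes, linear, from 0) in the 4 PDGFRα- (blue) and 4 PDGFRα+ (red) libraries, with grey lines between libraries of the same number and black marks for the mean and SD of each group (SD bars are cut off at 0 for Tenm2). Adgrl3 and Tenm4 do not overlap between the groups, and Adgrl2 is highest in number 4 on both sides.

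The counted reads could in part belong to neighbours. Exons of 5 of the 8 genes overlap another gene, all on the opposite strand, and whether the counting used strand is not given in the sources used here. For Adgrl3 the overlap with the antisense gene Gm16054 covers 1582 of 17750 exon bases. Gm16054 itself had at most 29 counts in a library, against at least 717 for Adgrl3. For Tenm4 the overlap with C230038L03Rik covers 988 of 21021 bases, and C230038L03Rik had 6 to 157 counts per library against at least 307 for Tenm4. The largest part covered was in Adgrl1, where the protein-coding gene Gm10644 covers 1107 of 8587 exon bases. Gm10644 had 16 to 154 counts per library against at least 1804 for Adgrl1. Flrt2, Flrt3 and Tenm2 have no such overlap in GENCODE M21.

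The sequences just before the start sites are shown for Adgrl3 and Tenm4, whose libraries did not overlap between the groups, and for Flrt2, the gene called lower in the blocked fit. RefSeq (GRCm38.p6) has 11 start sites for the 8 genes, with all 8 matched by symbol, and the first listed is printed as the 250 bases before it, 5′ to 3′ on the gene's strand. Adgrl3 is read at chr5:81020321-81020570 (plus strand), Tenm4 at chr7:96170994-96171243 (plus strand) and Flrt2 at chr12:95691976-95692225 (plus strand). The Adgrl3 window lies inside the gene as bounded in GENCODE M21, which starts at 81020138. The Tenm4 and Flrt2 windows end just before the starts of their genes there. Capitals mark matches on either strand to any of 4 short motifs, which do not contain one another. These are the TATA box core, spelled TATAAA, the box known by its letters CCAAT, the GC box, spelled GGGCGG, and the E-box, spelled CACGTG.
Adgrl3: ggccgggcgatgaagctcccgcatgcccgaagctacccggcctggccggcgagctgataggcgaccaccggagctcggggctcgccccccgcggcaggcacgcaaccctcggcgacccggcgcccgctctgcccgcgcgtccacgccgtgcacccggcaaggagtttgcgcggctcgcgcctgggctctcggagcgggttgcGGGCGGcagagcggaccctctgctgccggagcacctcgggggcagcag
Tenm4: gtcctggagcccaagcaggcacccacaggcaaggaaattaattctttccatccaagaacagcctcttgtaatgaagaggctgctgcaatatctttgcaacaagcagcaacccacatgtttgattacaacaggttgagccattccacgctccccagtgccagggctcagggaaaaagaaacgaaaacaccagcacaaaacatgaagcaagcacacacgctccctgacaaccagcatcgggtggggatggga
Flrt2: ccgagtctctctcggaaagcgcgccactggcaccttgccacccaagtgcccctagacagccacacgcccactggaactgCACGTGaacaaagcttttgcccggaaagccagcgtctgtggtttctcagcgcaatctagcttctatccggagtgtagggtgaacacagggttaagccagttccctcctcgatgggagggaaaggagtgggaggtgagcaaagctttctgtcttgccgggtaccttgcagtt

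The 3 windows differ in base composition. The printed Adgrl3 window, the first of 3 listed for this gene, is 76.8% G or C and holds 36 CG pairs, against 50.8% and 4 for Tenm4 and 57.2% and 12 for Flrt2. The other 2 Adgrl3 windows are 66% and 60% G or C with 18 CG pairs each. The first of them overlaps the printed window and holds a TATAAA and 2 GGGCGG matches, 1 of which is the match in the printed window. The last holds 1 GGGCGG match. Over all 32851 windows of the same length the median is 52.4% and 6 CG pairs. The GGGCGG match in the Adgrl3 window is shared by 32.7% of all windows and the CACGTG match in the Flrt2 window by 6.02%. TATAAA is in 12.4% and CCAAT in 33.8% of all windows, and neither is in the windows printed. Such matches describe the letters and are not evidence of binding.

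The other latrophilin genes differed less. Adgrl1 (ENSMUSG00000013033, chromosome 8, 83900105 to 83941954) stood at 111, 90.7, 143 and 129 CPM in PDGFRα- libraries 1 to 4 and at 117, 160, 172 and 179 CPM in PDGFRα+ libraries 1 to 4. The groups overlapped, although the PDGFRα+ library was the higher in all 4 same-numbered pairs. Its log2 difference was 0.41, the SE 0.18 and the 95% interval 0.01 to 0.80 (edgeR adjusted p = 0.693, and 0.171 with the block). Adgrl2 (ENSMUSG00000028184, chromosome 3, 148815583 to 148990555) stood at 136, 140, 183 and 330 CPM in PDGFRα- and 142, 113, 189 and 305 CPM in PDGFRα+ libraries 1 to 4. The number 4 libraries were the highest on both sides, and the fractions lay close together within each number. The log2 fold change of Adgrl2 was -0.08 ± 0.37 (SE), with a 95% interval from -0.90 to 0.75, which narrowed to -0.33 to 0.17 with the block (edgeR adjusted p = 0.995 and 0.888). Its sign turned to 0.30 without PDGFRα- library 4, and to 0.04 and 0.10 without PDGFRα+ libraries 1 and 2.

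The number 4 libraries also had the highest sums of endothelial markers. Pecam1, Cdh5, Kdr and Emcn together stood at 366 CPM in PDGFRα- library 4 against 14.7 to 32.3 CPM in the other PDGFRα- libraries, and at 80.7 CPM in PDGFRα+ library 4 against 6.47 to 67.5 CPM in the other PDGFRα+ libraries. On the PDGFRα+ side Pecam1 and Cdh5 were higher in library 3, at 35.2 and 26.9 CPM, than in library 4, at 30.2 and 21.5 CPM. Of the 4 markers, Cdh5 had 0 counts in some libraries. The part of these 4 markers in the Adgrl2 levels was not tested.

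The make-up of latrophilin RNA followed from these levels. CPM per kb of exon puts genes of different length on one scale, here with all annotated exons merged. On that scale Adgrl3 made up 6.81%, 14%, 11.2% and 9.19% of the 3 latrophilins in PDGFRα- libraries 1 to 4 and in PDGFRα+ libraries 1 to 4 these shares were 24.2%, 33.4%, 24.4% and 23.6%. The means were 10.3% ± 3.05 and 26.4% ± 4.66 (SD, n = 4). The share of Adgrl2 was 43.7% ± 7.69 and 30.2% ± 7.83, and that of Adgrl1 46.0% ± 7.82 and 43.4% ± 4.05. Adgrl3 has 35 annotated transcripts, and its merged exons are much longer than its longest transcript of 6793 bases. With the longest transcript as length the Adgrl3 share was 15.1% ± 4.33 and 37.3% ± 7.04. Adgrl2 then had the largest share on average in both groups, at 57.5% ± 6.99 and 38.1% ± 9.17. In PDGFRα+ library 2 Adgrl3 had the larger share, at 47.7% against 25.5%. The Adgrl1 share was 27.4% ± 6.1 and 24.6% ± 2.83, the smallest on average in PDGFRα+ libraries. The shares contain the Adgrl3 difference itself and are a description of it.

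**Figure D2:**
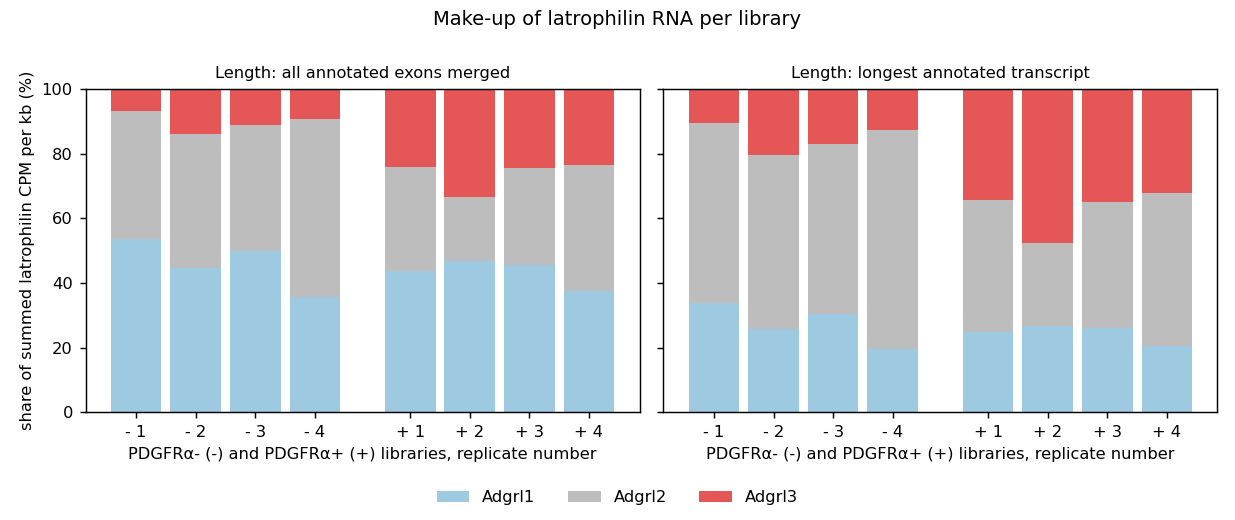
Share of each latrophilin gene in the summed latrophilin CPM per kb (vertical axis, percent) for each library, with 2 ways of taking gene length (panels). The Adgrl3 part is 6.81% to 14% in PDGFRα- and 23.6% to 33.4% in PDGFRα+ libraries with merged exons, and larger in every library with the longest transcript.

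Of the ligand genes, Flrt2 had the lower mean in PDGFRα+ libraries and passed the test in the blocked fit, and in the unpaired fit without the filter on low counts, but not in the unpaired fit with it. FLRT2 binds latrophilins and also the UNC5 guidance receptors. Flrt2 (ENSMUSG00000047414, chromosome 12, 95692226 to 95785215) stood at 72.5, 104, 112 and 109 CPM in PDGFRα- libraries 1 to 4 and at 58.5, 42.1, 58.8 and 80.5 CPM in PDGFRα+ libraries 1 to 4. The groups overlapped by PDGFRα+ library 4 and PDGFRα- library 1, and the PDGFRα+ library was the lower in all 4 same-numbered pairs. The means were 99.4 ± 18.2 and 60.0 ± 15.8 CPM (SD, n = 4), 1.66-fold lower in PDGFRα+. The log2 difference was -0.73 with an SE of 0.21, and edgeR did not call it (adjusted p = 0.280). With the block it was -0.74 with an SE of 0.17, and edgeR called Flrt2 lower (adjusted p = 0.0291). Over all alternatives the adjusted p ran from 0.0291 to 0.659. The blocked call was lost without number 2 and without number 3. The summed fibroblast markers, most of it from collagen I genes, were also lower in every PDGFRα+ library, and their part in the Flrt2 difference was not tested.

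Flrt3, the other FLRT gene of the set, differed more between libraries than between groups. It (ENSMUSG00000051379, chromosome 2, 140650914 to 140671469) stood at 43.9, 34.2, 24.6 and 28.4 CPM in PDGFRα- and at 40.3, 8.68, 24.4 and 32.8 CPM in PDGFRα+ libraries 1 to 4. PDGFRα+ library 2 alone lay below all others. The log2 fold change was -0.30 ± 0.38 (SE), with a 95% interval from -1.12 to 0.51 (edgeR adjusted p = 0.970, and 0.698 with the block). With the block and without number 2 it was 0.03. FLRT3 is known to bind the guidance receptor ROBO1, whose gene is in the list of other partners below.

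Among teneurin genes, Tenm4 was the one whose groups did not overlap. Tenm4 (ENSMUSG00000048078, chromosome 7, 96171246 to 96911093) stood at 20.9, 17.5, 23.9 and 27.0 CPM in PDGFRα- libraries 1 to 4 and at 36.6, 54.6, 39.2 and 51.5 CPM in PDGFRα+ libraries 1 to 4. The means were 22.4 ± 4.07 and 45.5 ± 8.89 CPM (SD, n = 4), a 2.03-fold difference. The log2 difference was 1.02 with an SE of 0.22, and edgeR did not call it (adjusted p = 0.0819). With the block it was 1.02 with an SE of 0.21, and edgeR called Tenm4 higher (adjusted p = 0.0157). Over all alternatives the adjusted p ran from 0.00373 to 0.298. The blocked call was lost without number 1, without number 2 and without number 3. Tenm4 was higher in all 4 same-numbered pairs. The summed fibroblast markers, most of it from Col1a1 and Col1a2, moved the other way without overlap. They were at least 64300 CPM in PDGFRα- and at most 63400 CPM in PDGFRα+ libraries. Dcn, Lum and Pdgfra each overlapped between the groups. The part of these markers in the Tenm4 and Adgrl3 differences was not tested.

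Tenm3 was the most abundant gene of the set and Tenm2 the least. Tenm3 (ENSMUSG00000031561, chromosome 8, 48227682 to 48843951) stood at 281, 385, 401 and 341 CPM in PDGFRα- and at 510, 348, 435 and 493 CPM in PDGFRα+ libraries 1 to 4. PDGFRα+ library 2 fell within the PDGFRα- range and the other PDGFRα+ libraries lay above it. The log2 fold change was 0.34 ± 0.17 (SE), with a 95% interval from -0.02 to 0.71 (edgeR adjusted p = 0.772, and 0.360 with the block). Tenm2 (ENSMUSG00000049336, chromosome 11, 36006656 to 37235964), whose protein is also known as Lasso, had 29, 29, 142 and 250 counts in PDGFRα- and 29, 5, 76 and 93 counts in PDGFRα+ libraries 1 to 4. That is 1.18 to 12.6 and 0.205 to 6.91 CPM, with libraries 3 and 4 above libraries 1 and 2 on both sides. For Tenm2 the log2 difference was -1.35 with an SE of 1.02 and a 95% interval from -3.57 to 0.87 (edgeR adjusted p = 0.926, and 0.334 with the block). With the block it was -1.54 with an SE of 0.64 and an interval from -2.90 to -0.17, and the PDGFRα+ library was the lower in all 4 same-numbered pairs. Tenm2 passed the adjusted threshold in neither fit. Single libraries moved its log2 difference by over 1.5 times, to -2.48 without PDGFRα+ library 4 and to -0.81 without PDGFRα- library 4.

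Markers of cells outside the stroma moved with Tenm2 in part. The enteric glia markers Sox10, S100b and Gfap summed to 0.326, 1.46, 1.64 and 5.18 CPM in PDGFRα- and to 0.917, 0, 0.129 and 4.46 CPM in PDGFRα+ libraries 1 to 4, with each of the 3 at 0 counts in some library. The 5 neuron markers summed to 0.804 to 19.0 CPM in PDGFRα- and 0.520 to 3.03 CPM in PDGFRα+ libraries, and all 5 were at 0 in some library. The 5 leukocyte markers summed to 13.7 to 45.1 CPM and 9.83 to 19.6 CPM. The 4 endothelial markers summed to 17.1, 14.7, 32.3 and 366 CPM in PDGFRα- and to 25.7, 6.47, 67.5 and 80.7 CPM in PDGFRα+ libraries 1 to 4. As for Tenm2, libraries 3 and 4 stood above libraries 1 and 2 on both sides. On the PDGFRα- side the sums of glia, neuron, leukocyte and endothelial markers were highest in library 4, as Tenm2 was. On the PDGFRα+ side, where Tenm2 was also highest in library 4, neuron markers were lowest there (0.520 CPM), and leukocyte markers stood at 19.1 CPM in library 1 and 19.6 CPM in library 4. The part of these cells in the Tenm2 levels was not tested. Of the other lists, smooth muscle markers summed to 224 to 1150 CPM on the PDGFRα- side and 233 to 721 CPM on the PDGFRα+ side, and pericyte markers to 728 to 1480 and 568 to 1120 CPM. The markers of interstitial cells of Cajal, epithelium and mesothelium stayed at or below 25.6, 20.7 and 3.27 CPM in every library.

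**Figure D3:**
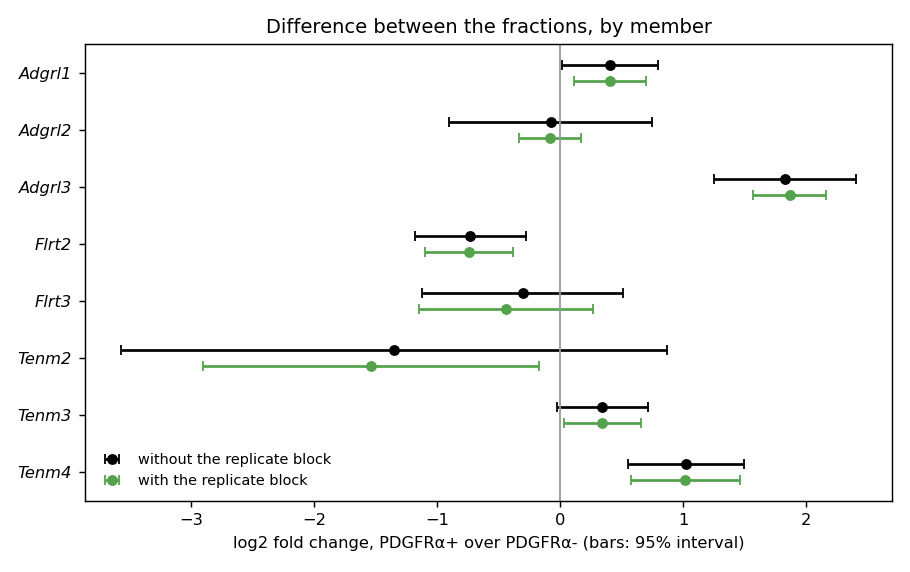
Log2 fold change of the 8 genes, PDGFRα+ over PDGFRα- (horizontal axis), in the fit without (black) and with (green) the replicate number as a block, with bars for the 95% interval. Adgrl1 and Tenm4 lie to the right of 0 and Flrt2 to the left in both fits. The intervals of Adgrl2 and Flrt3 include 0 in both, and those of Tenm2 and Tenm3 include 0 only without the block. These intervals are not adjusted for the number of genes, and Adgrl1, Tenm2 and Tenm3 passed the adjusted threshold in neither fit. Adgrl3 was chosen by this difference and is drawn as a description only.

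Counted over the 7 genes other than Adgrl3, edgeR called 0 higher and 0 lower without the block, at a threshold of 0.05 for the adjusted p. At an unadjusted p under 0.05 there were 3 without the block (Adgrl1, Flrt2 and Tenm4), against 6.95% of all 15643 genes, and 5 with it (Tenm2 and Tenm3 besides), against 11.7% of all genes. DESeq2 without the block called 1, Tenm4, where 156 genes were called higher and 116 lower among 17351 tested. limma-voom called 0, where 34 genes were called higher and 11 lower among 15643 tested. Over all 15643 genes tested, 0.192% were called higher and 0.0511% lower without the block, 0.243% in either direction. With the block Tenm4 was called higher and Flrt2 lower, against 1.34% and 0.933% of all genes. The groups did not overlap for 1 of the 7, Tenm4, with PDGFRα+ higher, as for 2.69% of all genes tested. Groups with PDGFRα+ lower and no overlap made up 2.36%, and both directions 5.05%. In the authors' deposited table, where the replicate number is a model term, 2.3% of 16785 genes are higher and 2.52% lower. In that table Tenm4 is higher (log2 value 1.01, adjusted p = 0.00108), Flrt2 lower (-0.76, adjusted p = 0.00399), and the other 5 have adjusted p values from 0.111 for Tenm2 to 0.819 for Adgrl2.

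Per kb of merged exon, the order of levels in PDGFRα- cells was Tenm3 at 34.4, Adgrl2 at 13.9, Adgrl1 at 13.8, Flrt2 at 12.9, Flrt3 at 6.73, Adgrl3 at 3.14, Tenm4 at 1.06 and Tenm2 at 0.572 CPM per kb. Neighbours whose libraries overlapped there were Adgrl2 with Adgrl1, Adgrl1 with Flrt2, and Tenm4 with Tenm2. In PDGFRα+ cells the order was Tenm3 at 43.6, Adgrl1 at 18.3, Adgrl2 at 13.2, Adgrl3 at 11.2, Flrt2 at 7.77, Flrt3 at 5.46, Tenm4 at 2.16 and Tenm2 at 0.227 CPM per kb. All neighbours from Adgrl1 to Tenm4 overlapped in their libraries there, and Tenm3 and Tenm2 stood apart at either end. Adgrl3 thus moved from rank 6 to rank 4 of 8. With the longest transcript as length Adgrl3 stood at 8.21 and 29.2 CPM per kb, at ranks 6 and 3. Adgrl2 then stood at 32.6 and 30.9 CPM per kb, at rank 2 in both groups with libraries that overlapped those of Tenm3, and Adgrl1 was at ranks 3 and 4. Among the 3 teneurins Tenm3 made up 95.5% ± 1.78 of the CPM per kb in PDGFRα- and 94.7% ± 1.57 in PDGFRα+ libraries, and Tenm4 3.00% ± 0.673 and 4.86% ± 1.6 (SD, n = 4).

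The remaining partner genes gave no call. The list holds Flrt1, Tenm1, the latrophilin relative Adgrl4, the UNC5 receptor genes Unc5a to Unc5d, Robo1, Fgfr1, the neurexin genes Nrxn2 and Nrxn3, Cntn6 and Dag1, and all 13 were tested. edgeR called 0 without and 0 with the block, against 0.243% and 2.27% of all genes in either direction. With shares this low, 0 calls in a list of this size say little about its genes. The unadjusted p was under 0.05 for 1 and 4 of 13 (6.95% and 11.7% of all genes), and DESeq2 and limma-voom called 0. Of the 13, 6 had positive and 7 negative log2 fold changes, with a median of -0.02 against -0.01 for all genes. The most abundant per kb were Dag1, which encodes dystroglycan, at 316 ± 54.8 and 312 ± 40.2 CPM (a log2 difference of -0.02 with an SE of 0.17), and Fgfr1, an FGF receptor gene whose protein FLRTs bind, at 285 ± 16.3 and 291 ± 25.3 CPM (0.03 with an SE of 0.14). Both signs depended on single libraries.

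Of 24 other adhesion G protein-coupled receptor genes 17 were tested. edgeR called 0 without the block, against 0.243% of all genes in either direction, and DESeq2 and limma-voom called 0. In edgeR 1 of 17 had an unadjusted p under 0.05 without the block and 1 with it (6.95% and 11.7% of all genes). With the block 1 was called higher, against 1.34% of all genes. It was Adgre5, which encodes CD97, at 45.6 ± 12.1 and 86.8 ± 29.4 CPM. Its blocked log2 difference was 0.91 with an SE of 0.21 (edgeR adjusted p = 0.0468, and 0.224 without the block). Over all alternatives the adjusted p of Adgre5 ran from 0.00162 to 0.624, and the blocked call was lost without number 1, 2 or 3. Positive log2 fold changes were found for 6 and negative ones for 11, with a median of -0.57 without and -0.14 with the block. Over all genes the median was -0.01 in both fits. Among the 11, Adgrf5 stood at 177 CPM in PDGFRα- library 4 and at 2.12, 0.603 and 10.5 CPM in PDGFRα- libraries 1 to 3. Its log2 difference was -1.91 without and 0.23 with the block. Adgra2, the other most abundant gene per kb, stood at 141 ± 14.6 and 153 ± 9.73 CPM (a log2 difference of 0.12 with an SE of 0.14; edgeR gave an adjusted p of 0.970).

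The list of genes for G protein coupling and scaffolds held G protein α subunits, RhoGEFs, Rhoa, SHANK scaffolds that bind latrophilin tails, and β-arrestins. All 19 were tested, and edgeR called 0 in both fits, against 0.243% of all genes without the block and 2.27% with it. In each fit 1 of 19 had an unadjusted p under 0.05 (6.95% and 11.7% of all genes). DESeq2 and limma-voom called 0 each. The median log2 fold change was 0.04. The most abundant per kb were Gnai2, at 239 ± 18.4 and 232 ± 28.1 CPM, and Gnas, at 664 ± 76.1 and 578 ± 28.4 CPM (edgeR adjusted p = 0.993 and 0.918). The groups did not overlap for 1 of the 19, with PDGFRα+ higher, against 2.69% of all genes tested, and 5.05% in either direction. This gene, named after its values were seen, was the β-arrestin gene Arrb1, at 134 ± 8.96 and 199 ± 49.8 CPM. Its log2 difference was 0.57 with an SE of 0.18 (edgeR adjusted p = 0.354, and 0.0702 with the block).

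**Figure D4:**
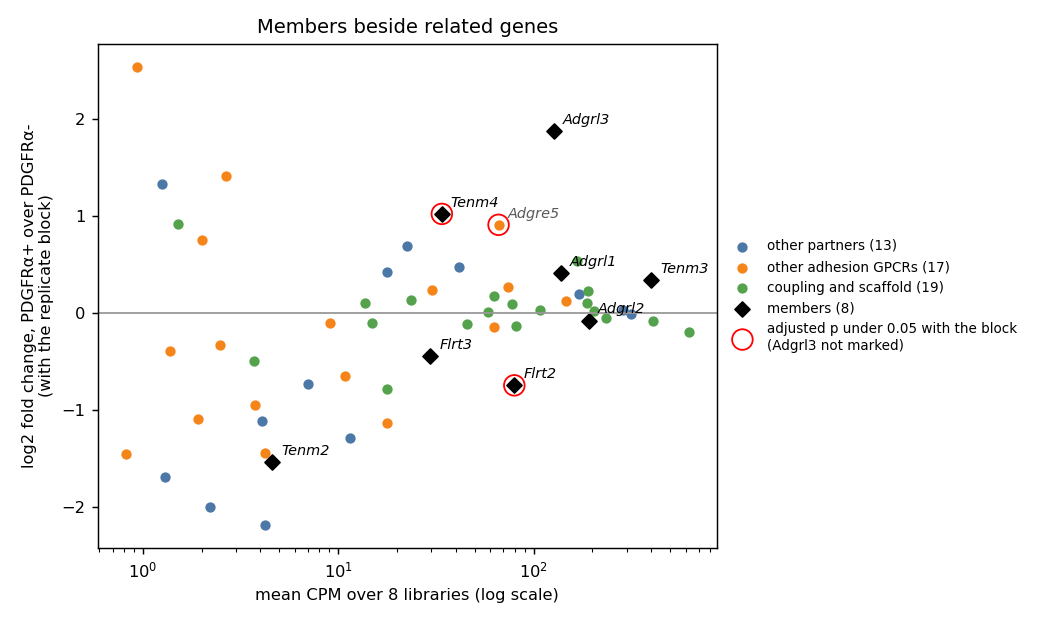
Log2 fold change with the replicate block (vertical axis) against mean CPM over the 8 libraries (horizontal axis, log scale) for the 8 genes (black diamonds) and the tested genes of the 3 related lists (coloured dots), with red rings around genes called in the blocked fit other than Adgrl3. Tenm4, Flrt2 and Adgre5 carry a ring, and most related genes above 100 CPM lie near 0.

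The genes with the pattern most like that of Adgrl3 were found by the root mean square difference between log2 CPM profiles over the 8 libraries, after each gene's mean was taken off. Among 6248 other genes with a mean of at least 20 CPM, these were Hpse2 at 0.33, Pde1c at 0.33, Runx2 at 0.34, Dach1 at 0.35 and Col6a5 at 0.36 on the log2 scale, against a median of 1.07. Hpse2 encodes a heparanase family member, Pde1c a cyclic nucleotide phosphodiesterase, Runx2 and Dach1 transcription factors and Col6a5 a collagen VI chain. Runx2 stood at 5.37, 13, 13.9 and 19.4 CPM in PDGFRα- and at 36.3, 54.3, 40.7 and 28.8 CPM in PDGFRα+ libraries 1 to 4. Dach1 stood at 23.9, 86.2, 74.3 and 68.5 CPM in PDGFRα- and at 91.6, 158, 186 and 187 CPM in PDGFRα+ libraries 1 to 4. Of the 5 genes, 4 (Hpse2, Pde1c, Runx2 and Dach1) were lowest in PDGFRα- library 1, as Adgrl3 was, and Col6a5 was lowest in PDGFRα- library 2. Tenm4 had the smallest such difference from Adgrl3 within the set, at 0.55, followed by Adgrl1 at 0.82 and Tenm3 at 0.87, and Tenm2 the largest at 2.23. These values were chosen for likeness and carry no test.

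**Figure D5:**
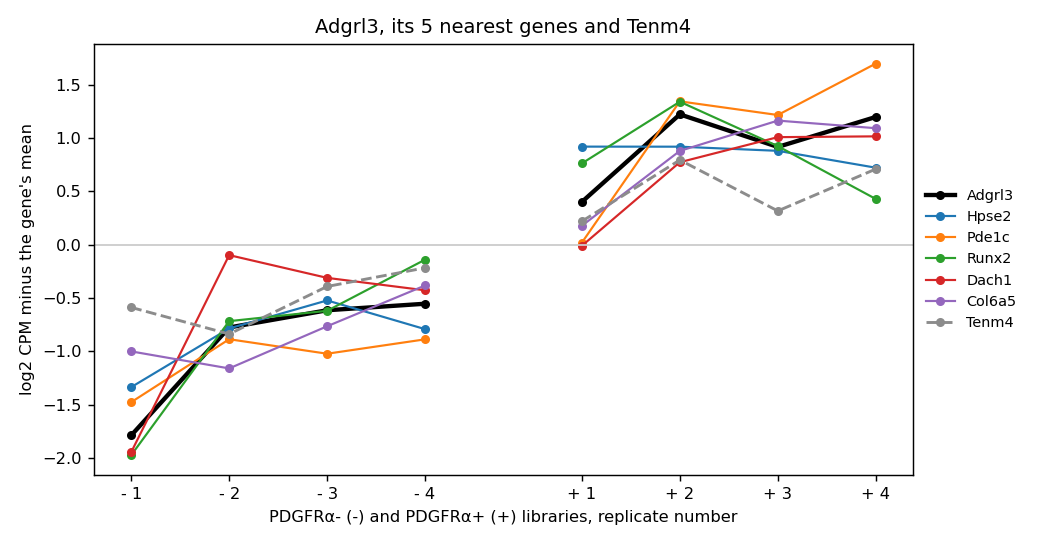
Log2 CPM minus each gene's mean over the 8 libraries (vertical axis) in PDGFRα- and PDGFRα+ libraries 1 to 4 (horizontal axis) for Adgrl3 (black), its 5 nearest genes (colours) and Tenm4 (dashed grey), with lines that only link the points of a gene. Adgrl3, Hpse2, Pde1c, Runx2 and Dach1 are lowest in PDGFRα- library 1, and Tenm4 lies within a narrower range than Adgrl3.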

How the data were processed

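Per the labels' protocols, RNA of the 8 libraries was made into stranded total RNA libraries from small inputs. The tools that the submitters' processing notes list are featureCounts 2.0.1, STAR 2.7.3a, cutadapt 3.4 and DESeq2, for GRCm38 (mm10). How strand was set, and which annotation was used, is not given in the sources used here. Raw counts were deposited by the authors, with a rounded, size-factor-scaled score per gene (the score was not used). The deposited comparison gives a fold change ratio, its log2, and p-values, beside model dispersions.

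Counts were tested with edgeR 4.0.16 in R 4.3.3 (robust quasi-likelihood, TMM, filterByExpr, group alone, Benjamini-Hochberg over 15643 genes). Alternatives were DESeq2 1.42.0, limma-voom (limma 3.58.1), DESeq2 size factors, no filter, the replicate number as a block, and libraries left out. No libraries were identical, and each pair differed beyond counting noise (chi-square over its degrees of freedom 38.7 or more). Without molecular identifiers, reads cannot be taken as independent molecules. GENCODE M21 matched 53620 of 53801 identifiers.

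Same-numbered libraries deviated together with correlations of 0.02 to 0.25, and for 7 of 8 libraries the highest such correlation was with the same-numbered one. The correlation for number 3 was 0.02, and the labels do not say what same-numbered libraries share, so pairing is not established. DESeq2 with number and group gave the deposited dispersions to within 8.7e-04%, and with group alone to within 7498%, so blocked values stand beside unpaired ones.

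Named are all 8 members, list genes called in either fit, the 2 most abundant per kb of each list, and the 5 genes nearest to Adgrl3 (prior count 2). Members and lists were chosen with earlier results of these data known. Of the listed partner and marker genes, 2 are not reported here and enter no list count, median or sum.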

Additional observations from a re-analysis of the deposited data

Results flagged for a closer look

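Of 38 groups of 4 libraries checked for the 19 named genes, 2 held a library far from its group. Chance flags about 1 in 20 such groups. Neither was among the 16 groups of the 8 latrophilin, FLRT and teneurin genes. Dag1 stood at 235 CPM in PDGFRα- library 4, with the next PDGFRα- library at 334 CPM. Adgra2 stood at 163 CPM in PDGFRα- library 1, with the next at 136 CPM.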

How the results depend on the processing

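The Adgrl3 difference stayed between 1.62 and 1.98 on the log2 scale under all 17 alternatives. Since Adgrl3 was chosen by this difference in the same libraries, that range is a description and not a test. Counts of called genes moved most: over all genes 30 were higher and 8 lower, against 167 and 110 without the filter, 156 and 116 with DESeq2, and 209 and 146 with the replicate block. Leaving out 1 library gave 7 to 39 higher and 0 to 11 lower. The higher count fell by over 1.5 times without PDGFRα- library 2 (11) or 3 (7) and without PDGFRα+ library 1 (19), 2 (12) or 3 (10), and the lower count without PDGFRα- library 1 (4), 2 (1) or 3 (0) and PDGFRα+ library 1 (4), 2 (3) or 3 (0). With the block and 1 number left out the counts were 124, 178, 77 and 185 higher and 72, 103, 22 and 115 lower, without numbers 1, 2, 3 and 4. Of the 7 members other than Adgrl3, 1 was called higher (Tenm4) without the filter, with DESeq2 and with the block, and 1 lower (Flrt2) without the filter and with the block. With the block and a number left out, these were 0 to 1 each: Flrt2 without number 1, none without 2 or 3, both without 4. Adgre5 was the 1 adhesion receptor gene called higher without the filter, with the block, and with the block without number 4 (0 to 1). Of the coupling and scaffold genes 1, Shank3, was called lower with the block without number 2 (0 to 1). Signs near 0 turned with the libraries left out: Adgrl2 from -0.4118 to 0.2962 (0.0033 with the block without number 2), Dag1 from -0.1347 to 0.0666 (0.0322, without 1), Fgfr1 from -0.0198 to 0.0819 (-0.0197, without 2), Gnai2 from -0.0937 to 0.0381 (0.0644, without 4), and Flrt3 0.0303 with the block without number 2; the cause was not tested. The block changed the calls of Tenm4, Flrt2 and Adgre5, and of the fibroblast markers Col1a1 and Col1a2 (lower, adjusted p = 0.0155 and 0.0137 in edgeR with the block). Tenm2 had 5 to 250 counts per library and a CV of 92.8% and 116% within the groups, so both depth and the spread between libraries limit its estimate.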
